A study of Sus scrofa with 21 samples.

Results

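The insulin-like growth factor (IGF) system was followed in the uterine lining of sows through 7 genes: the ligands IGF1 and IGF2, the receptors IGF1R and IGF2R, and the binding proteins IGFBP2, IGFBP3 and IGFBP5. A probe belonged to the set when its RefSeq accession was that of one of these pig genes. This gave 12 probes for 6 of the 7 genes, among 2389 genes named on the array: 5 probes for IGF2, 2 each for IGF1R and IGFBP2, and 1 each for IGF1, IGFBP3 and IGFBP5. IGF2R was not analysed here because no probe matched its accession. All 12 probes were well above background on 21 of 21 arrays, so all passed the filter on dim probes.

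RNA was measured in endometrium of Large White sows on 21 Agilent 1-colour arrays, 3 in each of 7 groups. In pregnant sows, which were given repeated insemination after heat, tissue came from conceptus attachment sites and from the inter-sites between them, on day 13, 18 or 24. Non-pregnant sows received inactivated sperm of the same boar and were sampled on day 13 alone, so days 18 and 24 had no non-pregnant counterpart. The labels give 3 sows per day, so attachment and inter-site arrays of a day would share sows. They do not give which arrays share a sow, and the sharing was not tested. The site comparisons were therefore fitted without pairing, and p-values measure the spread between these arrays.

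IGF1 and IGF2 are small secreted hormones related to insulin that act mainly through the receptor tyrosine kinase IGF1R, which signals through the PI3K and MAPK cascades. Binding proteins hold the ligands outside cells, prolong their life and limit or hand over their access to the receptor. In the pig, uterine IGFs are known as part of the maternal secretions around the time the conceptus elongates and attaches.

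A level below is log2 signal relative to the 75th percentile of its own array, and a difference is a log2 fold change with its standard error (SE) from limma. A probe was called at a Benjamini-Hochberg adjusted p under 0.05 over the 30091 probes tested. Levels of different probes are not compared, since each probe has its own brightness.

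The share of probes well above background ranged over the arrays between 62.3% and 77.1%. All 6 detected epithelial markers, both stromal markers (DCN and THY1) and all 4 smooth muscle markers were well above background on 21 of 21 arrays. The arrays of day 13 inter-site replicate 1 and day 24 inter-site replicate 3 stood apart. DKK1, a secreted WNT inhibitor, was at -3.23 and -6.13 on them, against 3.54 to 5.68 on the other arrays of pregnant sows and -5.37 to -4.62 in non-pregnant sows. Where IGF probes gained or lost a call without both arrays, the results are given both ways. All other results, inter-site differences among them, are given with both arrays in. Replicates 1 and 2 of several groups matched at most of 68 on-off probes, those bright on some arrays and dim on others without following the groups. The share was 95.6% at day 13 attachment sites, 95.6% at day 24 attachment sites, 98.5% at day 18 inter-sites and 94.1% in non-pregnant sows. Arrays of different days, and so of different sows, also matched at up to 95.6%, and whether the arrays of a group are separate sows was not tested.

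**Figure D1:**
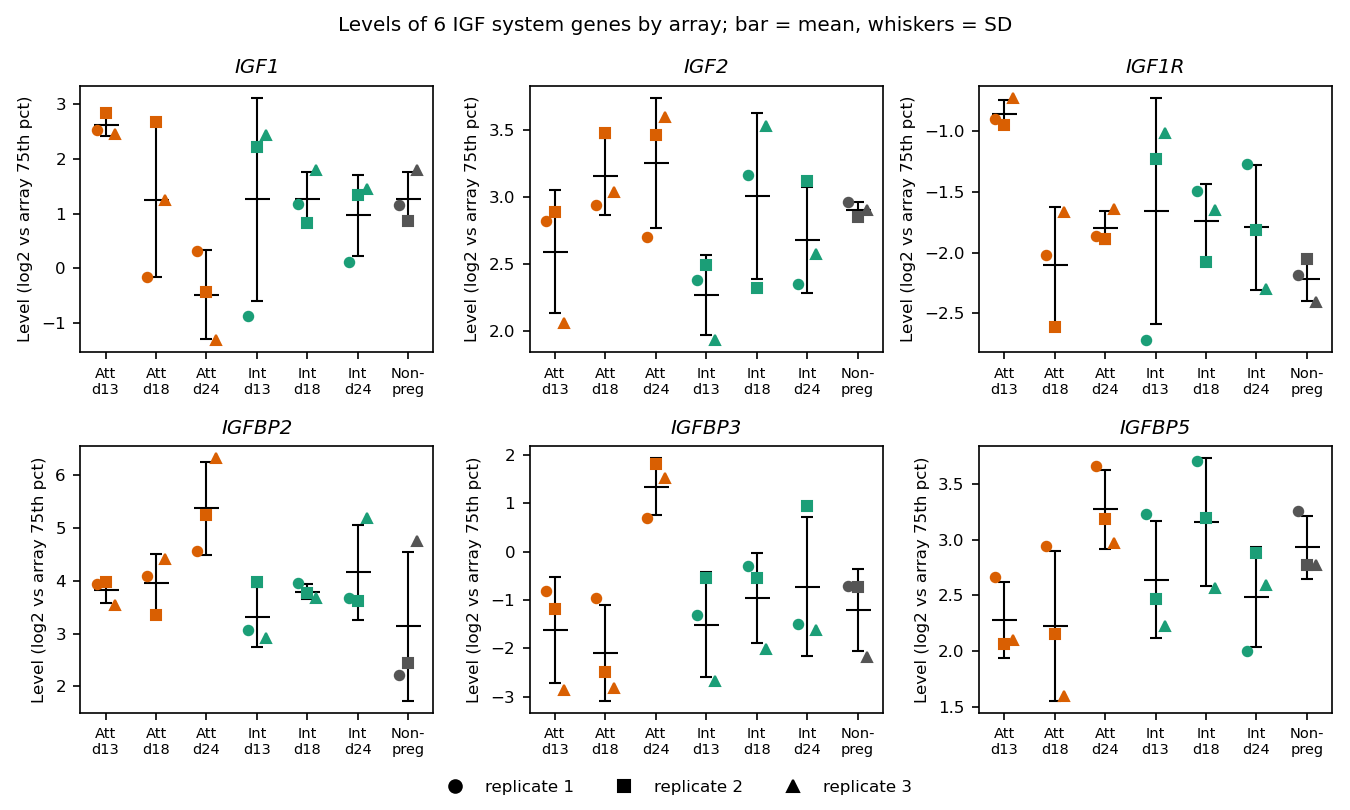
Level of 6 IGF system genes on each of 21 arrays (log2 relative to the array's 75th percentile), with the mean (bar) and SD (whiskers) of 3 arrays per group. Att is attachment site, Int is inter-site, and symbols mark the replicate number. IGFBP3 lies between 0.69 and 1.82 on the day 24 attachment arrays and IGF1 between -1.31 and 0.31, while IGF1R is at -0.95 to -0.73 on the day 13 attachment arrays.

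IGF1, the ligand that mediates much of the growth effect of growth hormone, was lower at attachment sites on day 24 than on day 13. Its levels at attachment sites were 2.53, 2.84 and 2.46 on day 13, -0.16, 2.67 and 1.25 on day 18, and 0.31, -0.43 and -1.31 on day 24. The day 24 and day 13 arrays did not overlap, and day 18 spanned most of the range between them. IGF1 averaged -0.48 ± 0.81 on day 24 and 2.61 ± 0.21 on day 13 (SD, n = 3 each). This was a difference of -3.09 (SE 0.76, 95% interval -4.70 to -1.47), or 8.5-fold lower, with a limma adjusted p of 0.0128. The difference of day 24 from day 18 was -1.73 (SE 0.76) and was not called (limma adjusted p = 0.184).

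At inter-sites IGF1 was at -0.87, 2.22 and 2.43 on day 13, 1.18, 0.83 and 1.80 on day 18, and 0.12, 1.34 and 1.45 on day 24. The low day 13 value belongs to an array that stood apart. Non-pregnant sows had 1.15, 0.87 and 1.80. Day 13 attachment sites therefore lay above all 3 non-pregnant arrays, by 1.34 (SE 0.76), a difference that was not called (limma adjusted p = 0.336). The change of the attachment minus inter-site difference between day 24 and day 13 was -2.80 (SE 1.08) and was not called either (limma adjusted p = 0.895). In the order of the 7 group means, day 13 attachment sites came first and day 24 attachment sites last. The 5 groups between them had means of 0.97 to 1.27, and no neighbours among those differed by more than their pooled SD. The day 13 inter-site mean among them (1.26, SD 1.85) includes the array that stood apart. The other day 13 inter-site arrays, at 2.22 and 2.43, lay above all these means and just below the day 13 attachment arrays.

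On the slides that held an array of each group, IGF1 was lower on day 24 than on day 13 at attachment sites by a difference of -2.22 on slide 1 and -3.27 on slide 4. With arrays that matched at on-off probes as a random block, the difference was -2.26 and no longer called (limma adjusted p = 0.102). Without day 24 attachment replicate 3 it was -2.67 (limma adjusted p = 0.0682).

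No probe of IGF2, an imprinted fetal growth factor, was called in any comparison. Its brightest probe read 2.82, 2.89 and 2.06 at attachment sites on day 13, 2.94, 3.48 and 3.04 on day 18, and 2.70, 3.46 and 3.6 on day 24. At inter-sites the levels were 2.38, 2.49 and 1.93, then 3.16, 2.32 and 3.53, then 2.35, 3.12 and 2.57 on the same days. The non-pregnant arrays lay close together at 2.96, 2.85 and 2.90. Among the IGF2 probes, 1 reached an unadjusted p under 0.05 for day 24 against day 13 at attachment sites, with a difference of 0.77 (SE 0.31, limma adjusted p = 0.101). For day 18 against day 13 at inter-sites 2 IGF2 probes did so, with differences of 0.74 (SE 0.33) and 0.76 (SE 0.31) and limma adjusted p of 0.894 and 0.866.

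The 5 IGF2 probes followed each other over the 21 arrays, with Pearson's r between 0.872 and 0.983 over 10 pairs. The probe pairs of IGF1R (r = 0.934) and IGFBP2 (r = 0.988) did so too. These values describe probes of one gene on the same arrays.

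**Figure D2:**
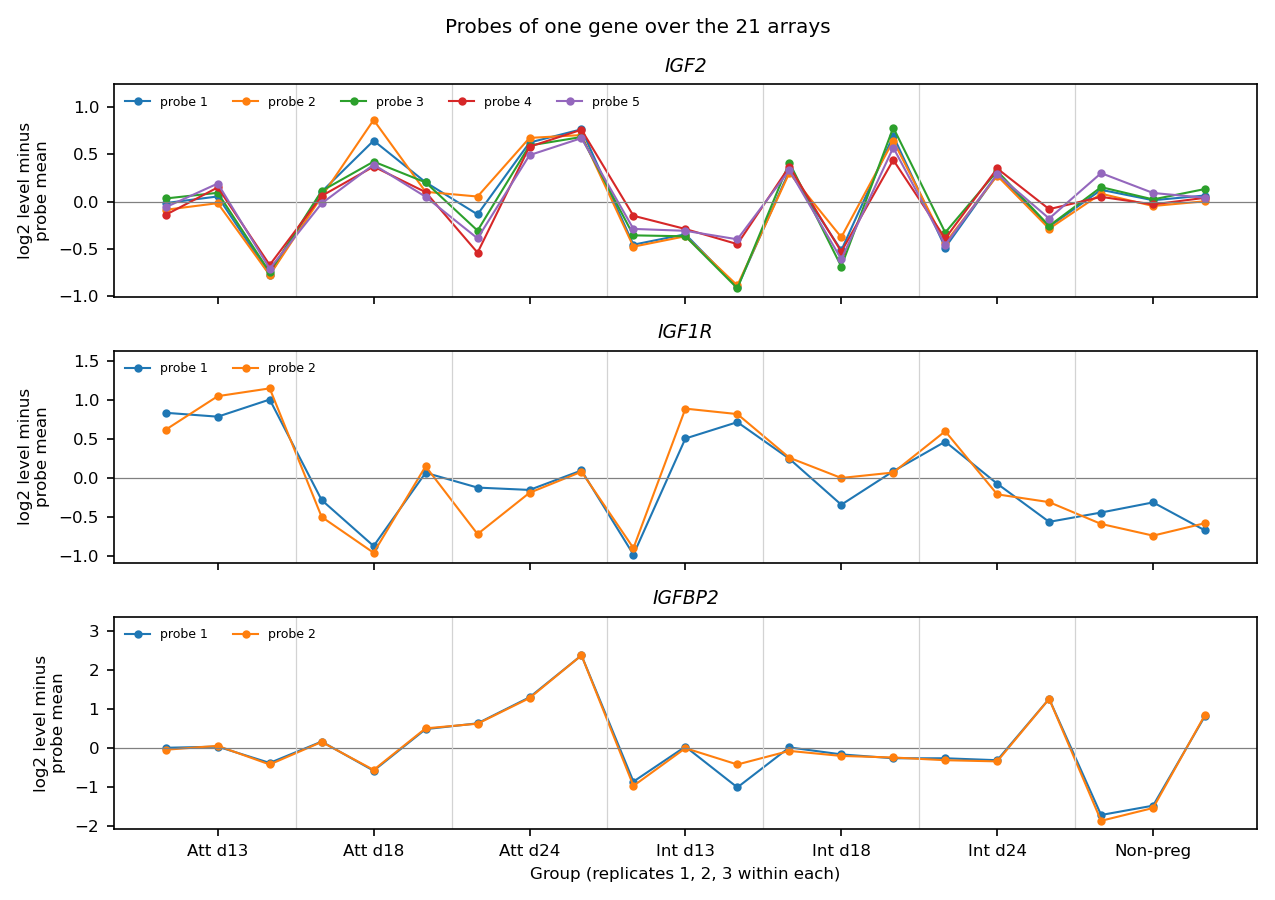
Level of each probe minus its own mean over 21 arrays (log2), for the 3 genes with several probes, with replicates 1, 2 and 3 in order within each group. Probes of one gene rise and fall together, with r of 0.872 to 0.988.

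IGF1R, the receptor for both ligands, was highest at attachment sites on day 13. Its brighter probe read -0.90, -0.95 and -0.73 there, then -2.02, -2.61 and -1.67 on day 18 and -1.86, -1.89 and -1.64 on day 24. Non-pregnant sows had -2.18, -2.05 and -2.41. The day 13 attachment arrays overlapped neither the later attachment arrays nor the non-pregnant ones. At inter-sites it read -2.72, -1.23 and -1.02 on day 13, -1.49, -2.08 and -1.65 on day 18, and -1.27, -1.81 and -2.30 on day 24. The lowest of these, on day 13, is again the array that stood apart.

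Against non-pregnant sows, day 13 attachment sites were higher by 1.35 (SE 0.37) and 1.58 (SE 0.40) on the 2 IGF1R probes. Neither was called (limma adjusted p = 0.0634 and 0.0546). Day 18 against day 13 at attachment sites gave -1.24 and -1.38 (limma adjusted p = 0.0812 and 0.0793), and day 24 against day 13 gave -0.93 and -1.22 (limma adjusted p = 0.0954 and 0.0504). Without both arrays that stood apart, the same differences had limma adjusted p of 0.0049 and 0.00566 against non-pregnant sows, 0.0193 and 0.0246 for day 18, and 0.0164 and 0.0107 for day 24.

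On slides shared by both groups, the difference from non-pregnant sows was 1.14 and 1.37 on slide 1 and 1.68 and 1.73 on slide 3. At day 13 inter-sites, the dimmer IGF1R probe was higher than in non-pregnant sows by 0.91 (SE 0.40, limma adjusted p = 0.254). The brighter probe was higher by 0.56 (SE 0.37, limma adjusted p = 0.443). Without both arrays that stood apart, the differences were 1.49 (limma adjusted p = 0.021) on the dimmer and 1.09 (limma adjusted p = 0.0381) on the brighter probe. Between attachment and inter-sites of day 13 the brighter probe differed by 0.79 (SE 0.37, limma adjusted p = 0.58). The change of this site difference from day 13 to day 18 was -1.16 (SE 0.52) and -1.22 (SE 0.57) on the 2 probes, neither called (limma adjusted p = 0.599 for both).

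Other markers differed in the same comparisons as IGF1R. For day 18 against day 13 at attachment sites, 0 of 6 epithelial markers were called by limma, where 1.8% of all probes were. An unadjusted p under 0.05 was found for 5 of 6, against 21.3% of all probes. The 6 epithelial markers had a median difference of -1.09, against 0.01 over all probes. Their log2 summed level was 6.09 to 7.0 on day 18 and 7.44 to 7.74 on day 13. The T cell markers CD2 (2.79, SE 0.55, limma adjusted p = 0.0258) and CD3D (2.04, SE 0.49, limma adjusted p = 0.0439) were called higher there. These were 2 of 5 leukocyte markers, where 1.8% of all probes were called. The leukocyte list had a median of 1.54, with 4 of 5 at an unadjusted p under 0.05. Its log2 summed level was nevertheless lower, at 1.98 to 2.55 on day 18 and 2.74 to 3.65 on day 13.

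Against non-pregnant sows, day 13 attachment sites had 1 of 5 leukocyte markers called higher (CD14), where 1.78% of all probes were called. The leukocyte median there was -0.38, with 2 of 5 at an unadjusted p under 0.05, against 20.2% of all probes. The smooth muscle median was -1.81, with 0 of 4 called by limma and 0 unadjusted. Day 13 inter-sites had a smooth muscle median of -3.16, with 0 of 4 called by limma and 3 of 4 unadjusted, against 17.6% of all probes unadjusted. Smooth muscle markers varied within groups, and their log2 summed level was 5.43, 9.47 and 5.89 at day 13 attachment sites, 5.48, 5.3 and 5.95 at day 13 inter-sites and 10.53, 10.42 and 5.31 in non-pregnant sows. The part of these markers in the IGF1R values was not tested.

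IGFBP3, the main carrier of IGFs in blood, had its highest levels at attachment sites on day 24. Its levels at attachment sites were -0.81, -1.19 and -2.86 on day 13, -0.96, -2.49 and -2.81 on day 18, and 0.69, 1.82 and 1.52 on day 24. The 3 day 24 arrays lay above all 6 earlier arrays. IGFBP3 averaged 1.34 ± 0.58 on day 24, -2.09 ± 0.99 on day 18 and -1.62 ± 1.09 on day 13 (SD, n = 3 each). The difference from day 18 was 3.43 (SE 0.78, 95% interval 1.79 to 5.07), or 10.8-fold higher, with a limma adjusted p of 0.0185. The difference from day 13 was 2.96 (SE 0.78, 95% interval 1.32 to 4.60), or 7.79-fold higher, with a limma adjusted p of 0.0169.

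Inter-sites had IGFBP3 levels of -1.31, -0.54 and -2.68 on day 13, -0.30, -0.54 and -2.02 on day 18, and -1.5, 0.94 and -1.61 on day 24. Non-pregnant sows had -0.71, -0.73 and -2.18. Day 24 inter-site replicate 2 was the only array outside day 24 attachment sites above 0. On day 24, attachment sites were higher than inter-sites by 2.07 (SE 0.78), but the groups overlapped and the difference was not called (limma adjusted p = 0.456). The change of the site difference from day 18 to day 24 was 3.20 (SE 1.10, limma adjusted p = 1). Replicate 3 had the lowest IGFBP3 level in 6 of the 7 groups. Over all 7 groups its mean deviation from the group mean was -0.84.

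With slide as a block, the IGFBP3 difference of day 24 from day 18 was 2.77 and no longer called (limma adjusted p = 0.0987). It also lost its call without day 18 attachment replicate 3, day 24 attachment replicate 2 or day 24 attachment replicate 3 (limma adjusted p = 0.0623, 0.0897 and 0.0834), and that from day 13 without day 13 attachment replicate 3, day 24 attachment replicate 2 or day 24 attachment replicate 3 (limma adjusted p = 0.085, 0.0682 and 0.0631). Within slides, day 24 exceeded day 18 by 4.17 on slide 2 and day 13 by 1.5 on slide 1 and 3.01 on slide 4.

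IGFBP2, a binding protein abundant in fetal and reproductive tissues, was also highest at day 24 attachment sites. Its brighter probe read 3.94, 3.97 and 3.55 on day 13, 4.10, 3.35 and 4.42 on day 18, and 4.57, 5.24 and 6.32 on day 24. The day 24 arrays lay above all 6 earlier ones. The differences of 1.55 (SE 0.60) from day 13 and 1.42 (SE 0.60) from day 18 were not called (limma adjusted p = 0.0868 and 0.164). The other probe gave 1.57 (SE 0.61) and 1.40 (SE 0.61), with limma adjusted p of 0.0917 and 0.178.

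Inter-sites had IGFBP2 levels of 3.07, 3.97 and 2.92 on day 13, 3.95, 3.77 and 3.67 on day 18, and 3.67, 3.62 and 5.20 on day 24. Non-pregnant sows had 2.21, 2.45 and 4.76, the last on the array with the low smooth muscle level of 5.31. The high day 24 inter-site value, on replicate 3, belongs to an array that stood apart. The high arrays, day 24 inter-site replicate 3 and non-pregnant replicate 3, matched at 92.6% of the on-off probes. The part of this match in the IGFBP2 values was not tested.

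IGFBP5, a binding protein that also attaches to the extracellular matrix, read 2.67, 2.06 and 2.10 at attachment sites on day 13, 2.94, 2.15 and 1.60 on day 18, and 3.66, 3.19 and 2.97 on day 24. Day 24 was above day 18 by 1.04 (SE 0.38) and above day 13 by 1.0 (SE 0.38), without overlap and without a call (limma adjusted p = 0.108 and 0.0812). Inter-sites had 3.23, 2.47 and 2.23 on day 13, 3.71, 3.20 and 2.57 on day 18, and 2.0, 2.88 and 2.59 on day 24. Non-pregnant sows had 3.26, 2.77 and 2.77.

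On day 18, IGFBP5 at attachment sites was lower than at inter-sites by a difference of -0.93 (SE 0.38, limma adjusted p = 0.981). The change of the site difference was 1.71 (SE 0.53) from day 18 to day 24 and 1.15 (SE 0.53) from day 13 to day 24, neither called (limma adjusted p = 1 and 0.895). IGFBP2 and IGFBP5 are neighbouring genes in the pig RefSeq table of assembly Sscrofa11.1.

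**Figure D3:**
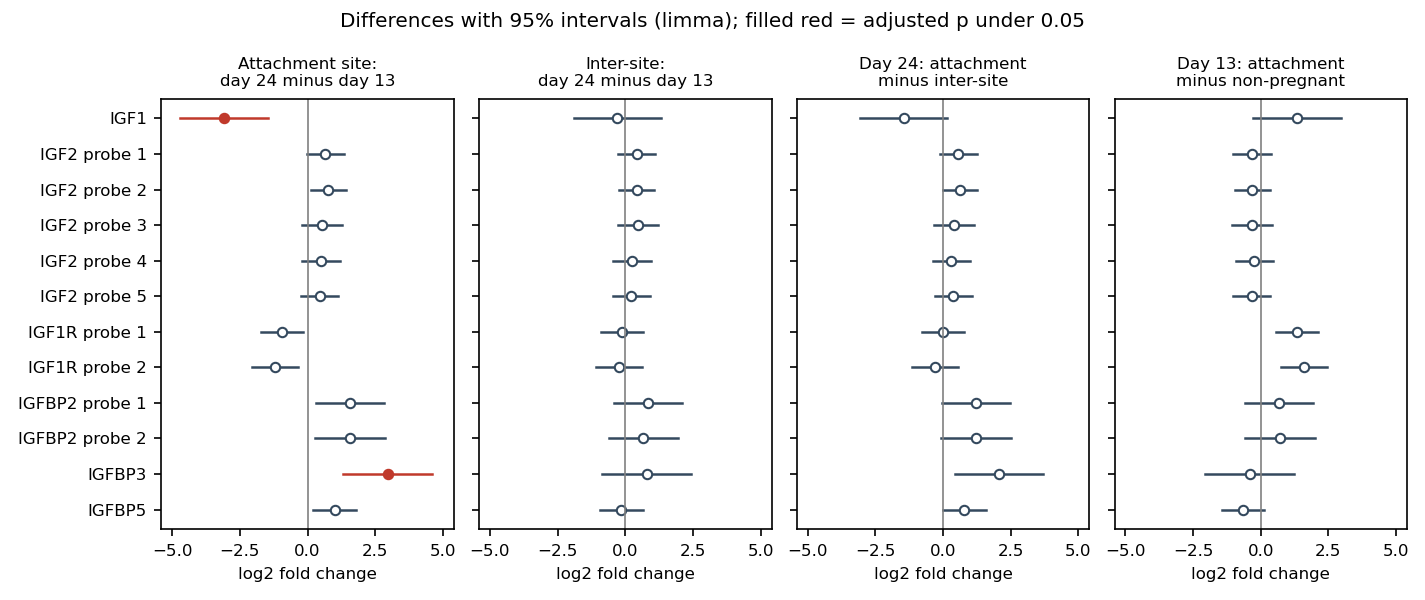
Difference in log2 level for all 12 probes in 4 comparisons, with 95% intervals from limma; filled red points are called. IGF1 (-3.09) and IGFBP3 (2.96) are called for day 24 minus day 13 at attachment sites, and none of the 12 is called in the other comparisons drawn.

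Over the 12 probes, 2 were called for day 24 against day 13 at attachment sites, where 15.7% of all tested probes were called. The median difference of the 12 was 0.60, against 0.01 over all tested probes. For day 24 against day 18 at attachment sites 1 of 12 was called, where 5.62% of all were. At an unadjusted p under 0.05 there were 8 of 12 for day 24 against day 13, against 30.5% of all probes, and 5 of 12 for day 24 against day 18, against 23.3%. Both counts of calls are close to those background shares, so they do not set the IGF genes apart from the array. The 8 probes at an unadjusted p under 0.05 came from 6 genes, and the 5 from 4 genes. Probes of one gene followed each other, so such counts and the median are not over independent probes. By limma, 0 of 12 were called for day 18 against day 13 at attachment sites (1.8% of all) and for day 13 attachment sites against non-pregnant sows (1.78% of all). At an unadjusted p under 0.05 there were 2 of 12 in each, against 21.3% and 20.2% of all probes.

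By limma, 0 of 12 were also called for day 13 inter-sites against non-pregnant sows, where 0.452% of all were called and 1 of 12 had an unadjusted p under 0.05, as had 17.6% of all. Attachment against inter-sites called 0 of 12 on each day by limma, with 1 of 12 unadjusted each time, against 8.11%, 4.69% and 8.05% of all on days 13, 18 and 24. The share of all probes called was 0% on day 13, 0% on day 18 and 0.279% on day 24. Between days at inter-sites limma called 0 of 12. All probes were called at 0.00665% for day 18 against 13, 0.143% for day 24 against 18 and 0.246% for day 24 against 13, with 2, 0 and 0 of 12 unadjusted, against 5.48%, 14.1% and 13.9% of all.

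The change of the site difference also called 0 of 12 by limma, with 2 of 12 unadjusted in each of its 3 contrasts. All probes were called there at 0% for day 18 against 13, 0.00997% for day 24 against 18 and 0.0199% for day 24 against 13, and had an unadjusted p under 0.05 at 7.91%, 3.21% and 4.87%. In the F-test over the 7 groups, limma called 0 of 12, against 13.4% of all probes, with 7 of 12 at an unadjusted p under 0.05, as were 32.2% of all. IGFBP3 had the lowest adjusted p there (0.0624).

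The spread within groups differed among the genes. The residual SD was 1.01 for IGF1 and 1.02 for IGFBP3, wider than that of 93.3% and 93.6% of tested probes. It was 0.78 and 0.80 for the IGFBP2 probes, 0.38 to 0.44 for IGF2, 0.46 and 0.52 for IGF1R and 0.48 for IGFBP5, against a median of 0.42 over all probes.

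Markers of conceptus and trophoblast moved with the day 24 attachment results. Of 6 tested, 4 (CYP19A3, CYP17A1, GATA3 and AFP) were called higher there than on day 13 and than on day 18. Over all tested probes, 15.7% and 5.62% were called in these comparisons, in either direction. CYP19A3, a pig aromatase gene of the conceptus, was well above background on the 3 day 24 attachment arrays and on no other array. The log2 summed level of the 6 markers was 4.01 to 5.29 at day 24 attachment sites, against 3.1 to 4.05 at day 24 inter-sites, 3.21 to 4.0 at day 18 attachment sites, 3.02 to 3.20 at day 13 attachment sites and 3.00 to 3.11 in non-pregnant sows. The sum includes GATA2 and GATA3, which were well above background on 21 of 21 arrays, non-pregnant sows included. It is therefore not a measure of conceptus RNA alone.

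Day 24 inter-site replicate 2, the array with IGFBP3 at 0.94, had a summed marker level of 4.05. Day 18 attachment replicate 2 had 4.0, with IGFBP3 at -2.49. At day 18 attachment sites CYP19A3 and CYP17A1 were well above background on 0 of 3 arrays and AFP on 2. At day 24 inter-sites CYP19A3 was so on 0 of 3 arrays, and CYP17A1 and AFP on 2 each. Of the 2 stromal markers, THY1 was higher at day 24 than at day 13 attachment sites, by 4.61 (SE 0.80, limma adjusted p = 0.00166), and DCN was not called. In that comparison 0 of 6 epithelial, 0 of 4 smooth muscle, 0 of 2 endothelial and 0 of 5 leukocyte markers were called by limma, with 0, 0, 1 and 1 unadjusted.

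For day 24 against day 18 at attachment sites, 1 of 6 epithelial markers was called higher (CDH1, 1.76, SE 0.45, limma adjusted p = 0.0296), with 5 of 6 unadjusted and a median of 1.1. Of all probes, 5.62% were called and 23.3% had an unadjusted p under 0.05 in that comparison. Of 5 leukocyte markers, only CD163 was called, and it was higher (2.48, SE 0.54, limma adjusted p = 0.016). The list's median was -1.14, with 4 of 5 at an unadjusted p under 0.05. The part of conceptus tissue or of other cell types in the IGF results was not tested. In such bulk tissue, fewer cells of a type and less RNA per cell cannot be told apart.

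**Figure D4:**
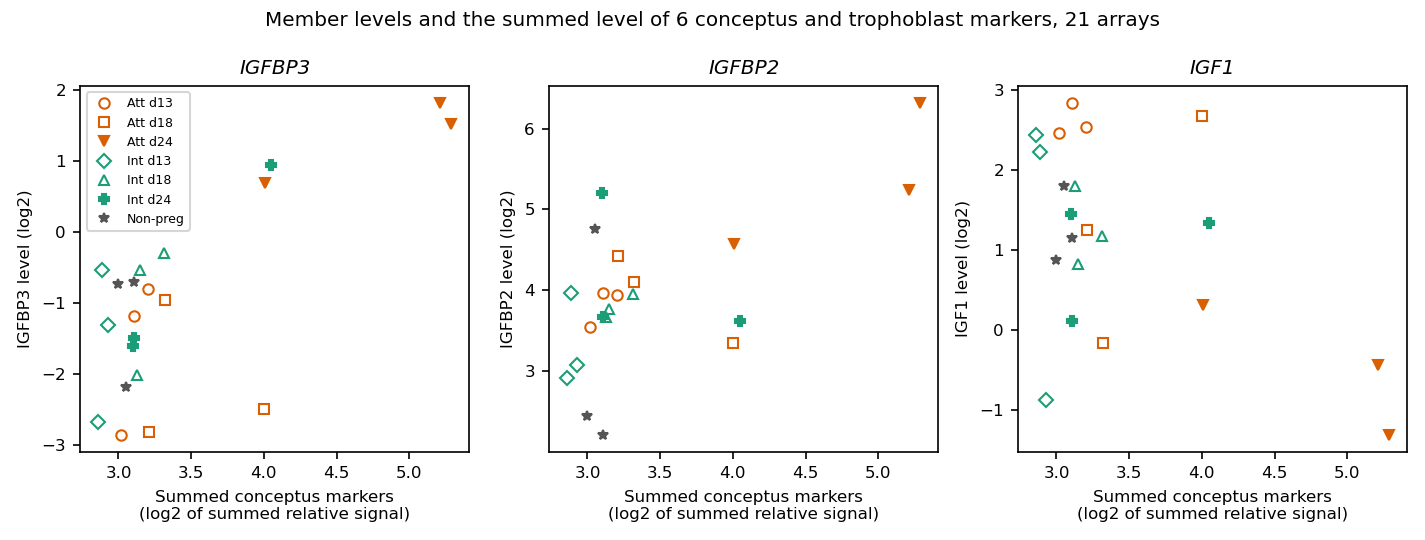
IGFBP3, IGFBP2 and IGF1 level (log2, y axes) against the log2 summed level of 6 conceptus and trophoblast markers (x axes) on 21 arrays, coloured by site type. The 3 day 24 attachment arrays lie at 4.01 to 5.29 on the x axes, with IGFBP3 at 0.69 to 1.82 and IGF1 at -1.31 to 0.31.

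Of 73 other genes listed for the IGF pathway, 25 were on the array and 20 were tested. For day 24 against day 13 at attachment sites, 2 were called higher and 1 lower, with a median difference of 0.11 over the 20 and 0.01 over all probes. These 3 of 20 stand against 15.7% of all probes called, so the count is near the background. These were IGFBP6, a binding protein that prefers IGF2 (1.86, SE 0.57, limma adjusted p = 0.0366), SOCS3, an inhibitor of cytokine and growth factor signalling (2.86, SE 0.43, limma adjusted p = 7e-04), and FOXO3, a transcription factor restrained by AKT (-0.70, SE 0.21, limma adjusted p = 0.0313).

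For day 24 against day 18 at attachment sites, 2 of 20 were called higher and 0 lower, where 5.62% of all probes were called. They were SOCS3 (1.91, SE 0.43, limma adjusted p = 0.0176) and CTSD, a lysosomal protease that can cleave binding proteins (1.26, SE 0.36, limma adjusted p = 0.049). The progesterone receptor gene PGR was lower than in non-pregnant sows on day 13, by a difference of -2.09 (SE 0.36, limma adjusted p = 0.0166) at attachment sites and -1.77 (SE 0.36, limma adjusted p = 0.0424) at inter-sites. It was the 1 of 20 called in each, where 1.78% and 0.452% of all probes were called. The other comparisons between groups called 0 of the 20 by limma, with 1 to 5 at an unadjusted p under 0.05. Attachment against inter-sites had 1, 1 and 4 on days 13, 18 and 24, against 8.11%, 4.69% and 8.05% of all probes. Day 18 against day 13 at attachment sites had 4, against 21.3%. Inter-sites had 2, 5 and 3 for day 18 against 13, 24 against 18 and 24 against 13, against 5.48%, 14.1% and 13.9%.

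Likeness of pattern was measured as Pearson's r over the 21 arrays between each gene's brightest probe and 2017 other named genes. These values share arrays, groups and scaling, and are descriptions. IGF1 was most like LOC404703 (0.822), CRYBB1 (0.815) and EIF4A2 (0.81). IGF2 was most like FAM210B (0.849), PDK1 (0.805) and LMO4 (0.8), and IGF1R was most like NCOA2, a coactivator of nuclear receptors (0.896), PNPLA2, a triglyceride lipase (0.892), and MAP2K1, a kinase of the MAPK cascade that IGF1R feeds (0.891).

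Among the binding proteins, the genes most like IGFBP2 included HMGB2 (0.878) and DNASE2 (0.772). IGFBP3 was most like PPARG, a nuclear receptor of lipid metabolism (0.853), VEGFA, an angiogenic growth factor (0.824), and MOSPD2 (0.822). The gene most like IGFBP5 was IGFBP3 (0.668), followed by GJC1 (0.655) and IGFBP7 (0.637).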

How the data were processed

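The authors deposited 1 scanner file per array with spot intensity as Agilent Feature Extraction wrote it (version 10.7.3.1 in the file headers, while the submitters' processing notes give 10.7). Its processed intensity had the background subtracted and spatial trends removed, per the file headers. Other columns used were its flags for well above background and outlier spots, per the file headers. The authors' deposited table, on a log2 scale, served as an alternative; its columns for day 24 inter-site replicates 2 and 3 followed each other's scanner files. Control and outlier spots were left out and repeated spots averaged, which left 43603 probes. Each array's 75th percentile was subtracted from its log2 processed signal. A probe was tested if it was well above background on every array of some group (30091 probes). One limma 3.58.1 model of the 7 groups was fitted to the 21 arrays under R 4.3.3 (lmFit and eBayes, Benjamini-Hochberg within each comparison), after it was tested on simulated data. Symbols came from RefSeq accessions, matched for 5461 of 5779 probes. Every IGF probe was named, with its difference where the unadjusted p was under 0.05. Other pathway genes were named where called, and for likeness the 3 genes of highest r, of which 1 is not reported here. The members and lists were chosen with earlier results of these data known. The number of arrays limits the precision. Alternatives covered background correction, scaling, filter, slide, pairing, arrays left out and the fit. For normexp the median spot signal was used, and the thresholds for on-off probes were set after the levels were seen.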

Additional observations from a re-analysis of the deposited data

How the results depend on the processing

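No difference named above changed sign under the alternatives run. Of the values of single differences under alternatives, 550 kept their side of the threshold, 28 gained a call and 9 lost one. For day 13 attachment sites against non-pregnant sows, where 0 of 12 probes were called, normexp with quantile normalization called 2, only probes above background on all 21 arrays 1, only the arrays of the groups compared 2, and a mean-variance trend with a robust prior 1. For day 24 against day 18 at attachment sites, slide as a block called 0 in place of 1. For day 24 against day 13 there, arrays matching at on-off probes as a random block called 1 in place of 2, and only the arrays of the groups compared called 7. The dimmer IGF1R probe was called there with normexp (limma adjusted p = 0.0264), quantile normalization (0.0489) and the array median (0.0431). The authors' table (0.0487), only probes above background on all 21 arrays (0.0457) and the trend with a robust prior (0.0496) called it too. It was not called without the filter on dim probes, with slide or matching arrays as a block, or with a replicate block. Normexp called 1 in the F-test over the groups, in place of 0. Without both arrays that stood apart, 2 were called at day 13 attachment sites and 2 at day 13 inter-sites against non-pregnant sows, 2 for day 18 and 4 for day 24 against day 13 at attachment sites, and 3 in the F-test. The share of all probes called under each alternative is not given here, so counts under the alternatives are not set against a background. Leaving out each array in turn gave 0 to 3 in the F-test, 0 to 2 for day 24 and 0 to 2 for day 18 against day 13 at attachment sites, 0 to 1 for day 24 against day 18 there, and 0 to 1 for day 13 inter-sites against non-pregnant sows. In the F-test the highest count came without day 13 inter-site replicate 1 (3, IGF1 and both IGF1R probes), and both IGFBP2 probes were called without non-pregnant replicate 3. Neither array that stood apart is in the attachment or non-pregnant groups, so differences among those groups stayed the same without both. The p-values of those differences also depend on the spread, which the 7 groups share in the same model. The cause of the other changes was not tested. The replicate numbers were not shown to pair the samples: same-numbered arrays of both sites correlated in their deviations from the group means at -0.107 to 0.49. With a replicate block, the F-test called 1 (IGFBP3, limma adjusted p = 0.0174) in place of 0, and IGFBP5 was called for day 24 against day 13 at attachment sites (1.0, limma adjusted p = 0.0336). Among probes, precision is lowest for IGF1 and IGFBP3, which had the widest spread within groups.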
